A study of Mus musculus with 8 samples.

Results

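Monoacylglycerol lipase (Mgll) and 9 other genes, of 2-AG turnover (an endocannabinoid) and of the making, coating, breakdown or supply of stored triglyceride, were followed in mouse bone-marrow-derived macrophages with and without progranulin. The 10 members (Mgll, Abhd12, Daglb, Pnpla2, Lipe, Abhd5, Plin2, Plin3, Dgat1 and Lpl) were taken by gene symbol from a table of 56980 genes, and each symbol matched 1 gene. They were selected on function and with earlier results of the same libraries known, the GrnKO-over-WT difference of Mgll among them. Genotype differences of the members, with their calls and intervals, are therefore given as a description. No p-value of a member is printed, and repeated calls support nothing by themselves.

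Macrophages store fatty acids as triglyceride in lipid droplets. Adipose triglyceride lipase (Pnpla2), switched on by its coactivator Abhd5, starts lipolysis, hormone-sensitive lipase (Lipe) continues it, and monoacylglycerol lipase releases the last fatty acid from glycerol. Mgll also degrades 2-arachidonoylglycerol (2-AG), an endocannabinoid that diacylglycerol lipase beta (Daglb) makes in macrophages, and so supplies arachidonic acid. Perilipins coat the droplet, Dgat1 adds the final acyl chain of triglyceride, and lipoprotein lipase (Lpl) frees fatty acids from lipoproteins outside the cell.

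The comparison was between 4 wildtype (WT) and 4 Grn knockout (GrnKO) cultures of C57/Bl6 origin, all given the vehicle DMSO. Each replicate came from marrow pooled over several mice, grown with 50 ng/mL M-CSF, harvested on day 7, frozen, thawed and cultured for 3 days. The knockout is constitutive; the deleted part of Grn and the age and sex of the mice are not given in the sources used here. Libraries counted tags at the 3′ ends of polyadenylated transcripts, in bulk, so fewer cells of a type and less RNA per cell cannot be told apart.

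Depth was 7413222 to 8768772 counts for WT and 5828178 to 7944863 for GrnKO, and RNA integrity numbers were 9.9 or 10. Grn stood at 1436 to 2027 CPM (counts scaled to a common library total) in WT and 12.96 to 14.4 CPM in GrnKO libraries, so each library matched its label. WT replicates 1 and 4 lay farthest apart on the second principal component (scores 32.7 and -41.3; GrnKO libraries -1.98 to 23.5). Of 12186 genes tested with edgeR's quasi-likelihood test, 518 (4.25%) were called at a Benjamini-Hochberg adjusted p under 0.05; 65.6% of the calls were higher in GrnKO, against 50.0% with no scaling factors. Over all tested genes the median was -0.03 on the log2 scale.

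The cultures expressed the 8 listed macrophage markers, among them Csf1r, Adgre1 and Cd68, at a summed 5266 to 9305 (WT) and 6150 to 7805 CPM (GrnKO libraries). Lyz2 made up most of these sums, with means of 4976 (WT) and 4856 CPM (GrnKO). All 8 were tested and 0 called (Adgre1 edgeR adjusted p = 0.05002). Adgre1, Fcgr1, Itgam and Cd14 were lower in every GrnKO library than in any WT library, as were 5.10% of all tested genes. Cd68 was higher in every GrnKO library, as were 6.88%. The groups of Csf1r, Mertk and Lyz2 overlapped. These genes were named after their values were seen. The 7 adipocyte markers were at or near 0 in both groups: their summed level was 0 to 0.657 (WT) and 0.305 to 0.888 CPM (GrnKO libraries), Cfd had no count in any library, and no library held more than 2 counts of any of them. The 5 monocyte markers summed to 56.8 to 64.9 (WT) and 12.5 to 20.7 CPM (GrnKO libraries), and 1 of the 2 tested was called lower. For the 8 neutrophil markers the sums were 43.3 to 153.5 and 13.8 to 26.1 CPM, with all 3 tested called lower. For the 6 osteoclast markers they were 9.82 to 14.2 and 21.3 to 29.0 CPM, with 1 of 4 tested called higher. No gene of the dendritic cell, stromal, lymphocyte and erythroid lists passed the filter, and no sum of these lists exceeded 3.20 CPM. The part of these macrophage, monocyte, neutrophil and osteoclast differences in the results below was not tested.

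All 10 members passed the filter on low counts, each being above its minimum of 1.317 CPM in all 4 WT and all 4 GrnKO libraries. Mgll and Plin2 were called higher in GrnKO, 8 members were not called and none was called lower. In the same fit, 2.79% of all tested genes were called higher and 1.46% lower. At an unadjusted p under 0.05, 5 members were higher and 0 lower; DESeq2 called 3 higher and 0 lower, and limma-voom 2 higher and 0 lower. The 4 GrnKO values lay above all 4 WT values for Mgll, Plin2, Plin3 and Lpl, as they did for 6.88% of all tested genes, and lay below all WT values for 0 members, against 5.10% of all tested genes. The median log2 fold change of the members was 0.29. Since this contrast was known when the members were chosen, nothing is read from these shares.

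**Figure D1:**
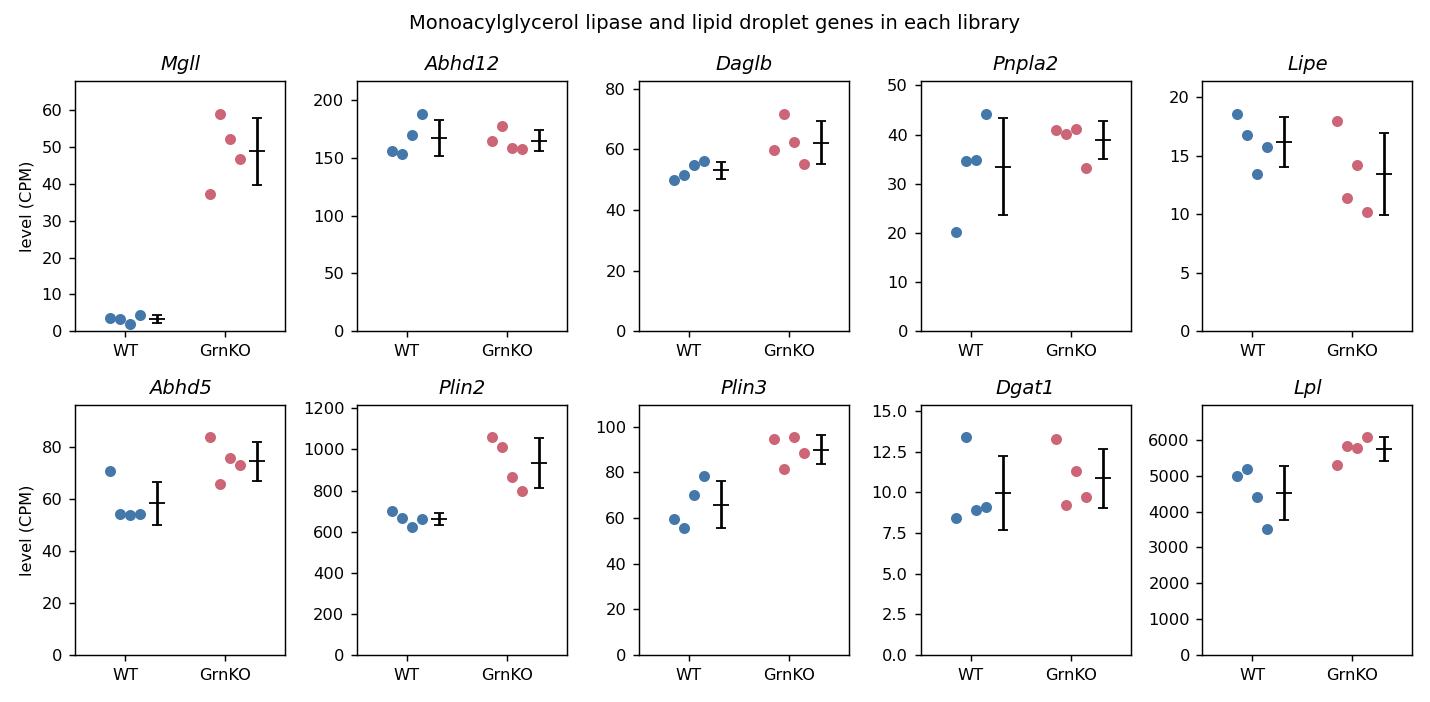
Level of each member in CPM (linear axes from 0) in the 4 WT (blue) and 4 GrnKO (red) libraries, with points in the order of replicates 1 to 4 and the mean ± SD in black. Mgll stands at 1.89 to 4.49 (WT) and 37.4 to 59.1 CPM (GrnKO libraries), while the groups of Abhd12, Daglb, Pnpla2, Lipe, Abhd5 and Dgat1 overlap.

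Among the enzymes of 2-AG turnover, Mgll differed most. Its level was 3.61, 3.38, 1.89 and 4.49 CPM over WT replicates 1 to 4, against 37.4, 59.1, 52.2 and 46.9 CPM over GrnKO replicates 1 to 4. The counts behind these values were 15 to 33 per WT library and 251 to 368 per GrnKO library. Every GrnKO library was above every WT library, and the lowest GrnKO value was 8.32 times the highest WT value. The means were 3.34 ± 1.08 and 48.9 ± 9.16 CPM (SD, n = 4 per group), a log2 fold change of 3.87 ± 0.24 (SE) or 14.6-fold (95% confidence interval 10.2 to 20.9). No gene among the 10030 tested genes averaging at least 5 CPM in either group had a larger log2 fold change, the next standing at 3.40. Mgll was called without each of the 8 libraries in turn, with log2 fold changes of 3.67 to 4.03, and under each of the other 12 settings tried.

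Abhd12, a serine hydrolase that cleaves lysophosphatidylserine and can also hydrolyse 2-AG, stood at 156.3, 153.7, 170.2 and 188.3 CPM over WT replicates 1 to 4. Over GrnKO replicates 1 to 4 it stood at 164.7, 177.7, 158.8 and 158.0 CPM. The groups overlapped throughout, and the log2 fold change was -0.02 ± 0.10 (95% interval -0.25 to 0.21), which turned to 0.04 without WT replicate 4. Abhd6, another 2-AG hydrolase that is not a member and was named after its values were seen, was at 1.64 to 3.13 (WT) and 1.04 to 2.42 CPM (GrnKO libraries; log2 fold change -0.48 ± 0.37, edgeR adjusted p = 0.55).

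Within a library, Mgll made up a larger part of the counts of these 3 hydrolases in GrnKO cells. Its share was 2.23, 2.11, 1.09 and 2.31% over WT replicates 1 to 4, against 18.4, 24.8, 24.6 and 22.6% over GrnKO replicates 1 to 4. The mean share was 1.93 ± 0.57% in WT and 22.6 ± 2.97% in GrnKO (SD, n = 4 per group). The summed level of the 3 genes was 172.6 ± 16.0 CPM in WT and 215.1 ± 15.8 CPM in GrnKO. Both quantities contain Mgll and add no independent evidence. Exact binomial 95% intervals of the shares, which cover counting error only, reached at most 3.23% in WT replicate 4 and began at 16.4% in GrnKO replicate 1.

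**Figure D2:**
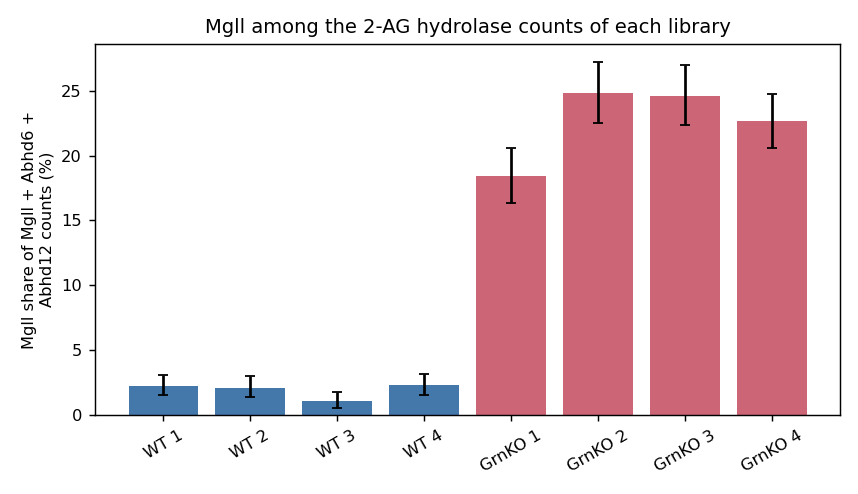
Share (%) of Mgll in the counts of Mgll, Abhd6 and Abhd12 together in each library, WT in blue and GrnKO in red; bars start at 0 and error lines are exact binomial 95% intervals, which cover counting error only. The WT shares are 1.09 to 2.31% and the GrnKO shares 18.4 to 24.8%.

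Daglb, the 2-AG synthase, stood at 49.9, 51.6, 54.8 and 56.0 CPM over WT replicates 1 to 4, against 59.7, 71.7, 62.2 and 55.0 CPM over GrnKO replicates 1 to 4. GrnKO replicate 4 lay within the WT range. The log2 fold change was 0.23 ± 0.12 (95% interval -0.03 to 0.48), and the gene was not called. Daglb overlaps Rac1 on the opposite strand, which held 2249 to 3913 counts per library. Since the sources used here do not say whether counting used strand, the Daglb values are uncertain.

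The groups overlapped for Pnpla2, Lipe and Abhd5, and none of these genes of early lipolysis was called. Pnpla2 stood at 20.2, 34.7, 34.7 and 44.3 CPM over WT replicates 1 to 4, against 40.9, 40.1, 41.2 and 33.1 CPM over GrnKO replicates 1 to 4. Its WT libraries spanned 2.19-fold and its GrnKO libraries 1.24-fold, and the GrnKO values fell inside the WT range. The log2 fold change was 0.22 ± 0.20 (95% interval -0.23 to 0.66), and it ranged from 0.04 to 0.38 when a library was left out.

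Lipe stood at 18.6, 16.8, 13.5 and 15.8 CPM over WT replicates 1 to 4, against 18.01, 11.4, 14.2 and 10.2 CPM over GrnKO replicates 1 to 4. GrnKO replicates 2 and 4 were the lowest of the 8 libraries, but the groups overlapped. The log2 fold change was -0.27 ± 0.20 (95% interval -0.70 to 0.16) and was not called, from 64 to 170 counts per library.

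Abhd5, the coactivator of Pnpla2, stood at 70.5, 54.1, 53.9 and 54.2 CPM over WT replicates 1 to 4, against 83.5, 65.5, 75.7 and 72.7 CPM over GrnKO replicates 1 to 4. Only WT replicate 1 reached into the GrnKO range. The log2 fold change was 0.35 ± 0.13 (95% interval 0.07 to 0.64), not called with all libraries and called without WT replicate 1, where it was 0.46.

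Both perilipins of these macrophages were higher in every GrnKO library than in any WT library. Plin2, the main droplet coat protein of macrophages, stood at 699.1, 664.5, 624.3 and 662.5 CPM over WT replicates 1 to 4, against 1059, 1012, 866.3 and 799.9 CPM over GrnKO replicates 1 to 4. GrnKO replicates 1 and 2 were the highest. The means were 663 ± 30.6 and 934 ± 122 CPM (SD, n = 4 per group), a log2 fold change of 0.50 ± 0.11 or 1.41-fold (95% interval 1.20 to 1.66). The call was lost without WT replicate 3 or GrnKO replicates 1, 2 or 3, where the log2 fold change was 0.43 to 0.53, and it was also lost with the replicate number as a block (0.49) and by limma-trend on the deposited values (0.43).

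Plin3, which also exchanges between cytosol and droplets, stood at 59.4, 55.8, 69.9 and 78.4 CPM over WT replicates 1 to 4, against 94.7, 81.5, 95.3 and 88.4 CPM over GrnKO replicates 1 to 4. The gap between the groups was narrow: the lowest GrnKO value was 1.04 times the highest WT value. The log2 fold change of 0.45 ± 0.13 (95% interval 0.17 to 0.74) was close to that of Plin2 but was not called; it was called by DESeq2, without WT replicate 4, and without WT replicates 1 and 4 together. Plin2 made up 90.9 ± 1.48% of the summed Plin2 and Plin3 counts in WT and 91.1 ± 1.25% in GrnKO libraries. The summed level of both was 728.5 ± 27.7 CPM in WT and 1024 ± 121 CPM in GrnKO. The other perilipins Plin1, Plin4 and Plin5, named after their values were seen, had at most 2 counts in any library.

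**Figure D3:**
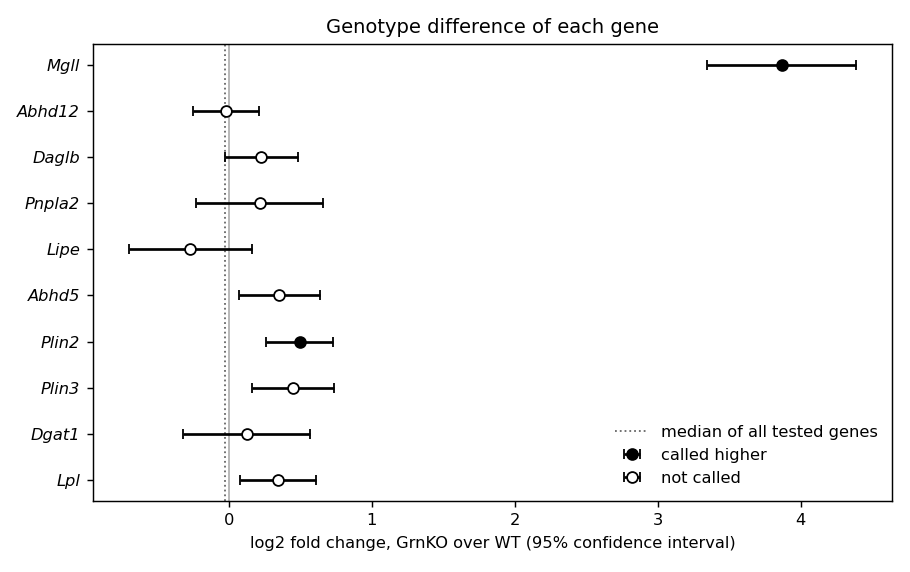
Log2 fold change of each member, GrnKO over WT, from edgeR, with 95% confidence intervals; filled points were called and open points were not, and the dotted line is the median of all tested genes (-0.03). Mgll lies at 3.87, whereas the other members lie between -0.27 and 0.50.

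Dgat1 stood at 8.43, 13.4, 8.94 and 9.12 CPM over WT replicates 1 to 4, against 13.2, 9.23, 11.3 and 9.68 CPM over GrnKO replicates 1 to 4. The groups overlapped, with a log2 fold change of 0.12 ± 0.20 (95% interval -0.32 to 0.57) that was not called. Dgat2, the other enzyme of this step, named after its values were seen, had 1 to 8 counts per library and was not tested.

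Lpl was abundant, with 25819 to 47671 counts per library. It stood at 4996, 5189, 4403 and 3516 CPM over WT replicates 1 to 4, against 5293, 5841, 5766 and 6073 CPM over GrnKO replicates 1 to 4. The groups did not overlap, but the lowest GrnKO value was 1.02 times the highest WT value. The log2 fold change was 0.34 ± 0.12 (95% interval 0.08 to 0.61), not called with all libraries, and ranged from 0.24 to 0.41 when a library was left out. WT libraries spanned 1.48-fold, with WT replicate 4 lowest, and GrnKO libraries 1.147-fold.

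The promoters of Mgll and Plin2, the members called higher, are shown because both hold the letters CACGTG, an E-box of the kind that transcription factors of the MiT/TFE family and others can bind. The RefSeq windows on GRCm38.p6 run from 250 bases before to 50 bases after an annotated start, 5′ to 3′ on the gene's strand, with CACGTG in capitals.
Mgll, chr6:88724162-88724461, plus strand: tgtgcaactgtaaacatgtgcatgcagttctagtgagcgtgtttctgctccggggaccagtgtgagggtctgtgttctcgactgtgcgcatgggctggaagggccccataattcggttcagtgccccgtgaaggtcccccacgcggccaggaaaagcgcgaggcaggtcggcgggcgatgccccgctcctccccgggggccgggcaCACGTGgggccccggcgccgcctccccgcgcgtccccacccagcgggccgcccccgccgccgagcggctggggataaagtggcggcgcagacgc
Plin2, chr4:86670010-86670309, minus strand: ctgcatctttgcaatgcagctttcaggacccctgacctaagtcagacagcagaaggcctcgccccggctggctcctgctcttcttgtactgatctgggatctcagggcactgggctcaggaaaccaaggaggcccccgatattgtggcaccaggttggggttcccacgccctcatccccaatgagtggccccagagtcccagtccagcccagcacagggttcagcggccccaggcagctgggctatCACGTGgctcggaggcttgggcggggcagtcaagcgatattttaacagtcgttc
The motif began at position -44 in the Mgll window and at -4 in the Plin2 window, counting the annotated start as 0. Windows were found for 7 members (9 windows), and none was found for Abhd12, Dgat1 and Lpl in the set used here. A further match lay in 1 of the 2 Lipe windows (position -155), a gene that was not called, and none lay in the windows of Daglb, Pnpla2, Abhd5 or Plin3. A second Mgll window, whose start lies 292 bases downstream, held none. Of all 32851 RefSeq windows of this length, 7.15% held CACGTG on either strand, on which it reads the same. The direct repeat of AGGTCA with 1 base between the copies is bound by peroxisome proliferator-activated receptors. Its exact letters were in none of the 9 windows and in 0.04% of all windows. With so low a share, nothing is read from their absence here. The GC box GGGCGG was in a window of each of these 7 members except Daglb and in 35.7% of all windows. The CCAAT box was found in the windows of Plin2 and Plin3 and in 37.4% of all windows, and TATAAA in none of the 9 and in 13.6% of all. These matches describe letters and are not evidence of binding.

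Genes of the same pathways that are not members were read from 7 lists chosen with earlier results known. Of 80 distinct genes tested, 5 rose and 1 fell, leaving 74 uncalled; their median was 0.01 on the log2 scale, beside 2.79% higher, 1.46% lower and a median of -0.03 over all tested genes.

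Hydrolases of cholesteryl esters and a lipolysis inhibitor were among those that rose. Of 8 tested genes of triglyceride and cholesteryl ester hydrolysis outside the members, 3 rose and 0 fell, leaving 5 uncalled (list median log2 fold change 0.10). Nceh1, a neutral cholesteryl ester hydrolase, rose from 431.8 ± 42.8 to 666.2 ± 31.6 CPM (SD, n = 4 per group; log2 fold change 0.63 ± 0.10, edgeR adjusted p = 0.0042). It was called without each library in turn. Lipa, the lysosomal acid lipase that degrades triglyceride and cholesteryl ester, rose from 793 ± 70.4 to 1110 ± 67.4 CPM (0.49 ± 0.10, edgeR adjusted p = 0.016). Its call was lost when WT replicate 3 or GrnKO replicate 1 or 2 was left out and with the replicate block (16 of 20 alternatives called it, highest adjusted p = 0.080). Hilpda, a droplet protein that inhibits Pnpla2, rose from 82.6 ± 14.6 to 125.5 ± 5.88 CPM (0.60 ± 0.14, edgeR adjusted p = 0.027). That call held in 11 of 20 alternatives (highest adjusted p = 0.10): it was lost when WT replicate 3 or any 1 GrnKO library was left out, with no scaling factors, in both limma-trend fits and with the replicate block. G0s2, another Pnpla2 inhibitor, named after its values were seen, had 0 to 6 counts per library.

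In the endocannabinoid list, 1 of 8 tested genes outside the members fell and 0 rose, leaving 7 uncalled (list median 0.19). Naaa, a lysosomal amidase that degrades N-acylethanolamines, fell from 68.4 ± 12.3 to 42.8 ± 1.77 CPM (a change of -0.68 ± 0.14 on the log2 scale, edgeR adjusted p = 0.018). The call was lost when WT replicate 3 or any 1 GrnKO library was left out and with the replicate block (14 of 20 alternatives called it, highest adjusted p = 0.091). Of the cannabinoid receptors, named after their values were seen, Cnr1 had 0 to 2 counts per library and was not tested. Cnr2 was at 20.5 to 26.7 (WT) and 26.4 to 36.8 CPM (GrnKO libraries; 0.41 ± 0.15, edgeR adjusted p = 0.16). At an unadjusted p under 0.05, 3 genes of the list outside the members were higher and 1 lower. DESeq2, and edgeR without WT replicate 1, also called Gde1 and Napepld, enzymes of N-acylethanolamine synthesis named after their values were seen, higher.

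For droplet coat and assembly, 1 of 9 tested genes outside the members rose and 0 fell, leaving 8 uncalled (list median 0.18). Pcyt1a, the enzyme that sets the pace of phosphatidylcholine synthesis for the droplet surface, rose from 140.9 ± 26.2 to 207.7 ± 15.9 CPM (0.56 ± 0.14, edgeR adjusted p = 0.048). That call held in 9 of 20 alternatives (highest adjusted p = 0.16): it was lost when WT replicate 2, WT replicate 3 or any 1 GrnKO library was left out, with no scaling factors, with the filter at a mean of 5 CPM, in both limma-trend fits and with the replicate block. Without WT replicate 4, and by DESeq2, Ldah, named here after its values were seen, was also called higher.

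Genes of triglyceride synthesis showed no call. Of 10 tested outside the members, edgeR called 0, DESeq2 0 and limma-voom 0, and 1 was lower at an unadjusted p under 0.05 (median -0.22). The 2 most abundant were Gpat4, a glycerol phosphate acyltransferase (83.9 ± 14.0 CPM in WT, 73.5 ± 12.0 in GrnKO), and the phosphatidate phosphatase Lpin1 (70.6 ± 38.1 CPM in WT, 92.4 ± 13.4 in GrnKO). Lpin1 spanned 26.1 to 111 CPM among WT libraries (lowest in replicate 1, highest in replicate 4), so the WT spread covered all GrnKO values.

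Of 9 tested partners of lipoprotein lipase and related lipases, edgeR and limma-voom each called 0 and DESeq2 1 (Lipg, higher, named after its values were seen). Lipg was at 0.504 to 2.41 (WT) and 2.66 to 6.37 CPM (GrnKO libraries; 1.66 ± 0.46, edgeR adjusted p = 0.069), from only 4 to 50 counts per library. Of the 9, 2 were higher at an unadjusted p under 0.05 (median -0.21). Sel1l, which helps Lpl leave the endoplasmic reticulum, stood at 223.5 ± 27.1 (WT) and 267.5 ± 16.2 CPM (GrnKO libraries; 0.26 ± 0.11, edgeR adjusted p = 0.25). The receptor Lrp1 stood at 173.9 ± 65.0 and 121.2 ± 27.4 CPM (-0.52 ± 0.24, edgeR adjusted p = 0.29). Lrp1 was called lower in 2 of 20 alternatives, with every gene with a count tested and without WT replicates 1 and 4 together. Its log2 fold change ran from -0.86 to -0.25 over the alternatives. Without WT replicate 1, edgeR called 1 gene of the list, Lipg, higher.

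In fatty acid oxidation, 1 of 20 tested genes rose and 0 fell, leaving 19 uncalled (list median 0.09). Hadhb, the beta subunit of the mitochondrial trifunctional protein, rose from 47.8 ± 7.26 to 76.3 ± 8.72 CPM (0.68 ± 0.14, edgeR adjusted p = 0.019), whereas its partner subunit Hadha, named after its value was seen, had a log2 fold change of 0.31 ± 0.13 (edgeR adjusted p = 0.23). The Hadhb call was lost when WT replicate 3 or 1 of GrnKO replicates 2, 3 and 4 was left out and with the replicate block (15 of 20 alternatives called it, highest adjusted p = 0.11).

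Of 17 tested regulators of lipid droplet genes, edgeR and limma-voom each called 0 and DESeq2 1 (Nr1h3, higher, named after its values were seen). Nr1h3 was at 7.43 to 12.6 (WT) and 13.8 to 17.9 CPM (GrnKO libraries; 0.73 ± 0.19, edgeR adjusted p = 0.054). Of the 17, 2 were higher and 2 lower at an unadjusted p under 0.05 (median -0.09). The kinase subunits Prkar1a (523 ± 24.0 and 492 ± 29.6 CPM) and Prkacb (231.8 ± 26.5 and 216.9 ± 15.4 CPM), through which cyclic AMP acts on lipolysis, were the most abundant. Pparg, a lipid-activated nuclear receptor named after its value was seen, was at 28.9 to 36.2 (WT) and 38.0 to 58.1 CPM (GrnKO libraries; 0.44 ± 0.15, edgeR adjusted p = 0.15). Tfeb (0.27 ± 0.18), Tfe3 (-0.21 ± 0.16) and Mitf (0.08 ± 0.23), E-box-binding factors likewise named after their values were seen, were not called (edgeR adjusted p = 0.48, 0.54 and 0.90). Without WT replicate 1, edgeR called 3 regulators, Nr1h3 higher and Foxo1 and Rxra lower, the last pair also named after their values were seen.

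**Figure D4:**
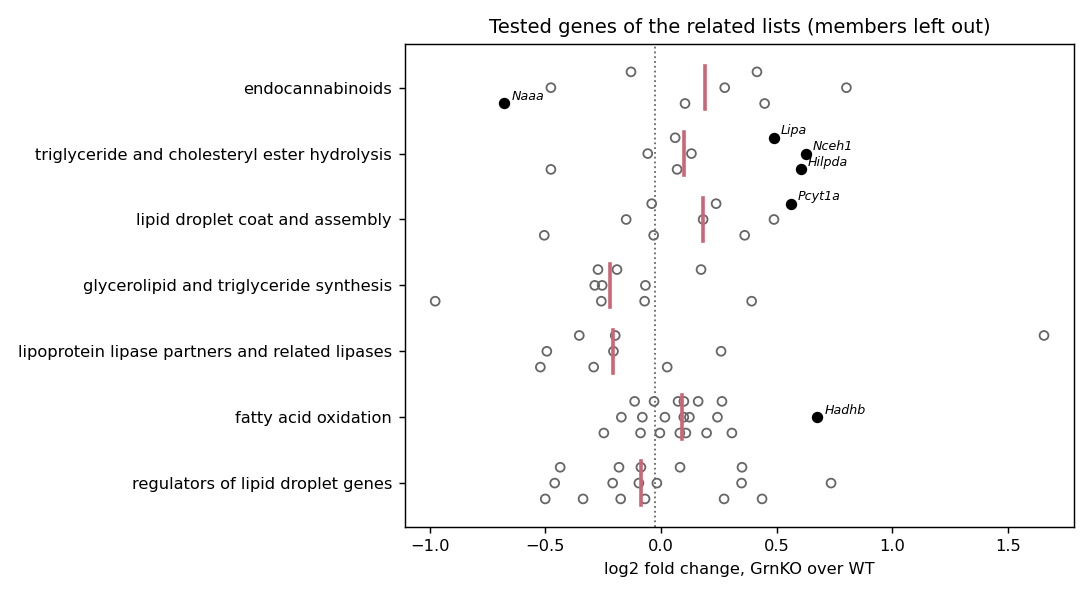
Log2 fold change, GrnKO over WT, of each tested gene of the 7 related lists, members left out; filled points were called and are named, open points were not, red bars are list medians and the dotted line is the median of all tested genes (-0.03). The 5 genes that rose lie between 0.49 and 0.68, and Naaa lies at -0.68.

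Profiles like that of Mgll were ranked by Pearson's r of log2(CPM + 1) among 9445 genes, those averaging at least 5 CPM in either group less the members and genes with predicted-model or clone names. Over the 8 libraries, which fall into 2 groups that dominate such an r, the 5 highest were the myosin Myo1e (0.997), the transcription factor Nfe2l1 (0.991), macrophage elastase Mmp12 (0.990), the lipoprotein-associated phospholipase Pla2g7 (0.989) and the cell cycle inhibitor Cdkn1c (0.986). After the group mean was taken from each library, the 5 highest were Ecpas (0.982), the droplet hydrolase Ldah (0.942), Eif2ak4 (0.941), Det1 (0.935) and Acp6 (0.911), a description over 8 libraries. All 5 were picked as the highest of 9445 genes, and whether such values arise by chance was not tested. Like Mgll, at 15 counts there, each was lowest among WT libraries in replicate 3. None of the 9 other members was above 0.31 on that measure.

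Mgll lies on chromosome 6 in the GENCODE M21 annotation, whose gene order was used without coordinates because its build differs from that of the counts. Of the 10 nearest tested genes, 5 on each side, 1 was called, Plxna1 (log2 fold change 0.83 ± 0.11, edgeR adjusted p = 0.0015), named after its value was seen. Over all tested genes, 4.25% were called. The 5 annotated genes that overlap Mgll, none classed as protein-coding, summed to at most 5 counts in any library. Mgll itself had 15 to 33 counts in WT libraries.

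**Figure D5:**
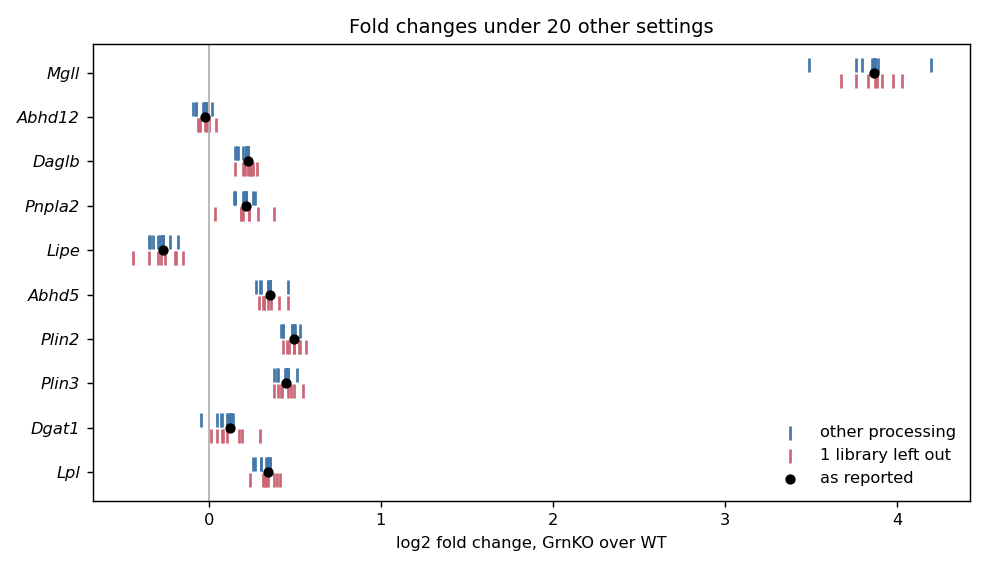
Log2 fold change, GrnKO over WT, of each member as reported (black) and under 20 other settings: 1 library left out (red) or other processing (blue). Mgll spans 3.49 to 4.19, Plin2 0.42 to 0.56 and Abhd12 -0.09 to 0.04, crossing 0.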

How the data were processed

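Bone-marrow-derived macrophages of 4 WT and 4 GrnKO replicates were profiled by 3′ mRNA sequencing with molecular identifiers to remove PCR duplicates, per the labels' protocols. The authors deposited estimated counts per gene, made with Salmon on GRCm39 per the submitters' processing notes; the version and the use of strand are not given in the sources used here. A deposited table of log2 CPM was used only for 2 alternatives, after the common value of all zeros was subtracted. Of the non-zero estimated counts, 36.4% were not whole (tolerance 1e-06), and all were rounded. Groups came from the sample titles. Nothing says how mice were divided among the pools, so p-values measure the spread between these pools.

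The main fit used edgeR 4.0.16 in R 4.3.3 (filterByExpr, TMM, robust quasi-likelihood) on all 8 libraries, adjusted over 12186 genes; SE and intervals follow from its F statistic. CPM values use TMM-scaled totals. Alternatives used DESeq2 1.42.0, limma 3.58.1 (voom, trend), other scaling and filters, non-robust dispersions, thinned counts, a replicate block and left-out libraries. The procedure was tested on simulated data that gave both groups the same dispersion, so that test does not cover an unequal spread between the groups. Same-group libraries differed: chi-square per degree of freedom was 9.933 to 45.18 between WT libraries and 2.91 to 10.24 between GrnKO libraries. Between a WT and a GrnKO library it was 20.2 to 40.17. Counting precision rests on 5828178 to 8768772 counts per library.

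The members and lists were chosen with earlier results of these data known. Named genes are Grn, the members, up to 4 called genes of each list by p or, where none was called, the 2 of highest CPM, and the 5 genes most like Mgll on each measure; other genes of the lists, and Plxna1, were named after their values were seen, as the text says. Of the listed genes, 1 matched no symbol. Promoters were matched by symbol to RefSeq windows.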

Additional observations from a re-analysis of the deposited data

Results flagged for a closer look

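Of 50 groups of 4 libraries examined for a value standing apart from the other 3, 4 were marked; chance marks about 1 in 20. Abhd5 was at 70.5 CPM in WT replicate 1 against 53.9 to 54.2 CPM in the other WT libraries. Pnpla2 was at 33.1 CPM in GrnKO replicate 4 against 40.1 to 41.2 CPM in the other GrnKO libraries. Dgat1 was at 13.4 CPM in WT replicate 2 against 8.43 to 9.12 CPM in the other WT libraries. The Mgll share of the 2-AG hydrolase counts was 1.09% in WT replicate 3 against 2.11 to 2.31% in the other WT libraries, from 15 Mgll counts.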

How the results depend on the processing

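Of 20 alternatives, all kept Mgll (log2 fold change 3.49 to 4.19) and Nceh1 called, 13 kept Plin2 called, and 3 called Plin3. List counts here include members, and the cause of the changes was not tested. Depth limits Mgll in WT libraries, at 15 to 33 counts.

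With no scaling factors, 281 genes were lower and the droplet list had 1 call. Testing every gene with a count gave 918 calls, 427 of them lower, with 2 among lipoprotein lipase partners and 1 among regulators. Testing genes averaging at least 5 CPM left 1 droplet call. DESeq2 gave 831 calls (517 higher, 314 lower), with 4 endocannabinoid, 4 droplet, 1 lipoprotein lipase partner and 1 regulator call. The limma-trend fits on the deposited log2 CPM, with pseudocounts of 1 and 0.25, each left 1 member higher and 0 droplet calls.

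Samples share only a replicate number: correlations of same-numbered deviations ran from -0.39 to 0.147, and 1 of 4 correlated best with its own number. The replicate block gave 220 calls (168 higher, 52 lower), with 1 member higher and 1 endocannabinoid, 2 hydrolysis, 0 droplet and 0 fatty acid oxidation calls.

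Leaving out WT replicates 1 and 4 together, chosen after seeing the data, gave 973 calls (535 higher, 438 lower), with 4 droplet, 2 lipoprotein lipase partner and 2 regulator calls; the log2 fold change of Abhd12 turned to 0.0208 and that of Dgat1 to -0.0442. That of Abhd12 ran from -0.0593 to 0.0426 when 1 library was left out, turning positive without WT replicate 4. Leaving out 1 library at a time gave 267 (without GrnKO replicate 2) to 942 calls (without WT replicate 1), 193 to 530 higher and 73 to 412 lower, with 1 to 3 members higher. The lists then held 1 to 4 endocannabinoid, 2 to 5 hydrolysis, 0 to 4 droplet, 0 to 1 lipoprotein lipase partner, 0 to 1 fatty acid oxidation and 0 to 3 regulator calls.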
